A study of Rattus norvegicus with 10 samples.

Results

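The genes of thyroid hormone handling and action described here in adult rat testis are the deiodinase genes Dio1, Dio2 and Dio3, the hormone-responsive genes Thrsp, Klf9, Me1 and Hr, the gene of the cytosolic binding protein Crym, and the cofactor genes Ncor1 and Ncoa1. They are 10 of 17274 gene symbols in the deposited table and were taken by name, each from the row with the highest mean of both group columns. Each symbol had a row of its own, and none of the 10 rows was shared with another gene name. The table gives 1 value per group, so the spread between animals is not known, no difference was tested and no p-value is given.

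The groups were 2 sets of 5 testis libraries from male Wistar offspring at postnatal day 120. The mothers of the BDE-47 group were fed BDE-47, a tetrabrominated diphenyl ether used as a flame retardant, in tocopherol-stripped corn oil at 0.2 mg/kg body weight daily, and those of the vehicle group were fed the oil alone. Dosing ran from day 8 of pregnancy until day 21 after birth, with 7 mothers per group, and the labels do not tie libraries to litters. The column called Control was read as the vehicle group, and every direction below rests on the column names.

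Thyroid hormone circulates mainly as thyroxine, a prohormone that Dio2 converts inside cells to the active triiodothyronine. Dio1 also makes triiodothyronine, chiefly in liver and kidney, and Dio3 inactivates both forms. The active hormone binds nuclear receptors, which on target genes exchange corepressors such as Ncor1 for coactivators such as Ncoa1. In the rat testis the hormone is known for ending the proliferation of Sertoli cells after birth and for promoting the differentiation of Leydig cells.

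The promoters of the members past 2-fold, Thrsp and Me1, and of Dio2, the deiodinase gene with a readable level, are shown as those of the genes on which the results turn. The sequences are from RefSeq on build GRCr8, run 5′ to 3′ in the direction of the gene and cover 250 bases before to 50 after the annotated start. Capitals mark the GC box GGGCGG, here on the opposite strand as CCGCCC, or the box TATAAA.
Thrsp, chr1:161138915-161139214, minus strand: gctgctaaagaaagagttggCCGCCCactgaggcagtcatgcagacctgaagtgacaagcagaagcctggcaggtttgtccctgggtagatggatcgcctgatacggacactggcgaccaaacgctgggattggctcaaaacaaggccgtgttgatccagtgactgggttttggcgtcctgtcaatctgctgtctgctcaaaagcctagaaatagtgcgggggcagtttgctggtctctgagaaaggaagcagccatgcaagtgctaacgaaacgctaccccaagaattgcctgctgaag
Me1, chr8:96540195-96540494, minus strand: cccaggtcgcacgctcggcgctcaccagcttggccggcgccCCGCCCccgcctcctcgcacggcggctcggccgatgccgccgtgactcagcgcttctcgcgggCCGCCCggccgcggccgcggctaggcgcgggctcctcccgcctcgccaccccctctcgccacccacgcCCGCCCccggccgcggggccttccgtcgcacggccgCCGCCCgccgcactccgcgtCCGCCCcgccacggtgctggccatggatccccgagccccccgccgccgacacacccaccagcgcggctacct
Dio2, chr6:115410545-115410844, minus strand: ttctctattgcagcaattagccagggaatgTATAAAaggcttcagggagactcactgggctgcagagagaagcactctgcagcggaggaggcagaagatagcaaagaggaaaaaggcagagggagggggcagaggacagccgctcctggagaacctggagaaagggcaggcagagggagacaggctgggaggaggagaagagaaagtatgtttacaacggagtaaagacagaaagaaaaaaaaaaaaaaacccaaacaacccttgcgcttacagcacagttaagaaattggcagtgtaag

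Promoters were found for 8 members, all but Hr and Crym. The core motif of the thyroid hormone response element, AGGTCA, was in none of the 8 on either strand, and neither was its direct repeat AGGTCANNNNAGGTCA, which contains the core motif. Over all 33469 promoters of the table, 16.2% hold AGGTCA and 0.00598% the repeat. The GC box was found 5 times in the Me1 promoter, once in that of Thrsp, and also in those of Dio3, Ncoa1 and Ncor1, against 33.1% of all promoters. TATAAA was found in the Dio2 and Dio3 promoters, against 14.2% of all. The GC content ran from 49.0% for Dio2 to 81.7% for Me1, with a median of 51.7% over all promoters. No motif of those searched was common to the 8 promoters, and a match or its absence in these windows says nothing on binding.

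Levels are given in FPKM, a count of fragments set against transcript length and library size, which can be compared between genes. A gene was compared between the columns if its mean was at least 1 FPKM. By this rule 7 members could be read, and Dio1, Dio3 and Hr were too low. In the order of mean level the readable members were Me1, Klf9, Ncor1, Dio2, Crym, Thrsp and Ncoa1. The mean of Me1 was above that of 87.3% of the 11567 compared genes, that of Ncor1 above 50.4% and that of Ncoa1 above 16.0%. Without replicate values it cannot be said which neighbours in this order differ.

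**Figure D1:**
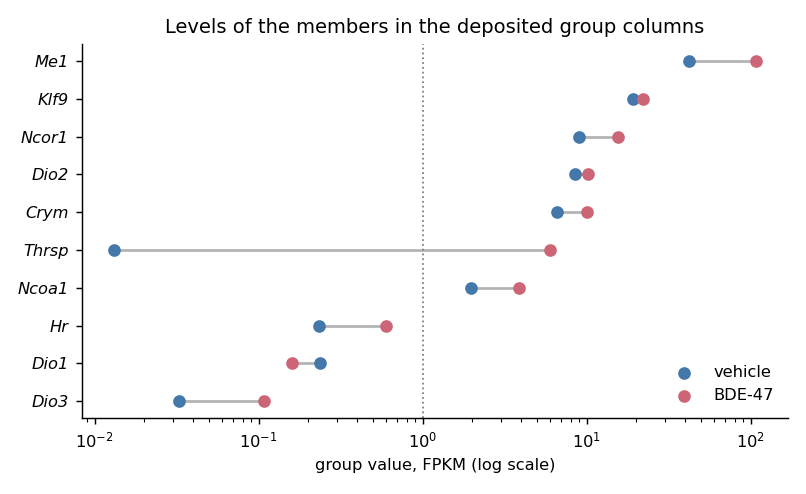
Group values of the 10 members in FPKM on a log axis, ordered by mean, with blue points for the vehicle column, red points for the BDE-47 column, 1 value per group and no error. The dotted line marks 1 FPKM; Me1 is the most abundant member, Thrsp has the widest gap (0.0130 and 5.98 FPKM), and Dio1 alone has the higher point in blue.

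Among the deiodinase genes Dio2 was the only one with a readable level, and its columns were close. Dio2 was at 8.46 FPKM with vehicle and 10.2 with BDE-47, a difference of 0.24 on the log2(FPKM + 1) scale. Differences on this scale are the BDE-47 value minus the vehicle value, and they understate the change of low genes. Dio1 was at 0.237 and 0.159 FPKM, and it was the only member with the lower value in the BDE-47 column. Dio3 was at 0.0326 and 0.107 FPKM. In FPKM, Dio2 was thus 35.8 times Dio1 with vehicle and 64.0 times with BDE-47. Both lower genes lay far under 1 FPKM, where the deposited values carry no measure of error, so the change in this ratio cannot be read as a change in Dio1.

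Thrsp and Me1 were the members past 2-fold, a rule of size that stands here in place of a test, and both were higher with BDE-47. Me1 encodes the cytosolic malic enzyme, which supplies NADPH for fatty acid synthesis and is a classic hormone-responsive gene of rat liver. It was at 42.2 FPKM with vehicle and 108 with BDE-47, a difference of 1.34 on the log2(FPKM + 1) scale. Thrsp encodes Spot14, a nuclear protein of liver and fat that promotes lipid synthesis. It was at 0.0130 FPKM and 5.98 FPKM, a difference of 2.78. Thrsp passed the filter only through the BDE-47 column, so that its difference had to be large.

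The size of the Thrsp difference depends on how its vehicle value is treated. That value lay under 0.05 FPKM, as did those of 32 of the 11567 compared genes. The log2 ratio in the authors' deposited table was 8.84 for Thrsp. Of the compared genes above the floor in both columns, 2 had a deposited ratio of that size or more, Thrsp and the macrophage protease gene Mmp12, which was named after its value was seen. Mmp12 was at 0.00714 and 14.9 FPKM. The direction of Thrsp was the same under the 10 alternatives run, while its difference ran from 2.41 to 8.84. Its entry through the BDE-47 column had fixed that direction, so the constancy is no support for it.

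Of the other hormone-responsive members, Klf9 lay within 2-fold and Hr could not be compared. Klf9, a transcription factor gene that the hormone receptor induces directly in rat brain, was at 19.3 FPKM with vehicle and 22.0 with BDE-47, a difference of 0.18. Hr, the gene of the corepressor Hairless, which the hormone induces in rat brain, was at 0.235 and 0.599 FPKM and was too low to read, with a difference of 0.37 that became 1.06 with a pseudocount of 0.1. Within a column, ratios of members do not depend on a factor applied to the whole column, though quantile normalization can change them. Me1 was 2.19 times Klf9 with vehicle and 4.92 times with BDE-47. Dio2 was 0.438 times Klf9 with vehicle and 0.463 times with BDE-47. In the deposited values Dio2 and Klf9 thus kept nearly the same proportion while Me1 did not.

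The binding protein and cofactor genes lay within 2-fold. Crym, whose product holds triiodothyronine in the cytosol, was at 6.63 FPKM with vehicle and 9.99 with BDE-47, a difference of 0.53. Ncor1 was at 9.00 and 15.6 FPKM, a difference of 0.73. Ncoa1 was at 1.96 and 3.86 FPKM, a difference of 0.72. On this scale the corepressor and coactivator genes thus had nearly equal differences, while their deposited log2 ratios were 0.79 and 0.98. Ncor1 was 4.59 times Ncoa1 with vehicle and 4.03 times with BDE-47.

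The share of members past 2-fold was near that of all genes. Of the 7 readable members, 2 were at least 2-fold higher, or 28.6%, and 30.1% of the 11567 compared genes were. None was at least 2-fold lower, against 3.6% of compared genes. The median difference was 0.72 for the 7 members and 0.45 for all compared genes, whose quartiles were -0.20 and 1.17. The difference of Thrsp, which had to be large, was larger than that of 97.6% of compared genes. That of Me1 was larger than that of 79.3%, and those of Ncor1, Ncoa1 and Crym larger than those of 60.2%, 59.8% and 52.6%. Dio2, at 41.8%, and Klf9, at 39.2%, lay below the middle, which places them lower than most genes even though their own values were higher in the BDE-47 column.

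**Figure D2:**
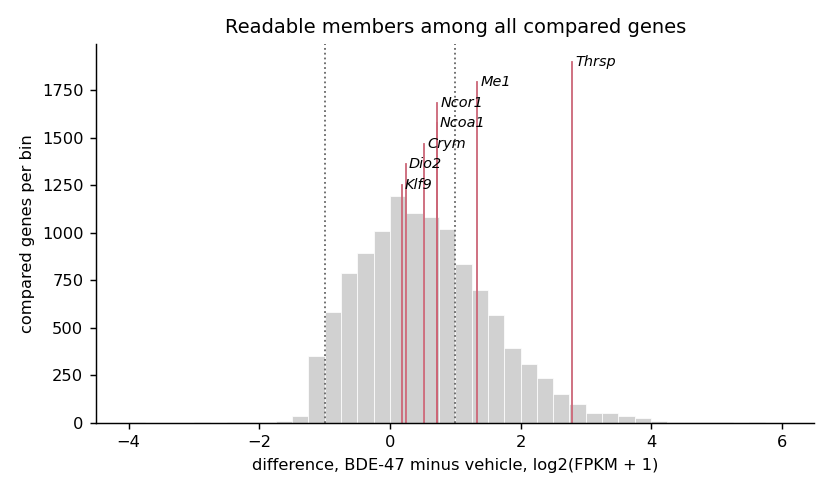
Differences between the columns on the log2(FPKM + 1) scale (x axis) for the 11567 compared genes in grey bins of 0.25 (y axis, genes per bin), with values under -4 placed in the first bin, and the 7 readable members as red lines whose heights have no meaning. Dotted lines mark 2-fold; Thrsp and Me1 lie beyond the upper one and the other 5 members lie near the peak of the distribution.

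The direction of the smaller differences depended on the scaling of the columns. Median-of-ratios scaling removed a shift of 0.52 log2 units, and then 1 of the 7 readable members was at least 2-fold higher, against 19.3% of compared genes, and none was lower, against 14.5%. Me1 was then at 0.83, under 2-fold, while Thrsp was at 2.56. Dio2 and Klf9 turned to -0.23 and -0.31. After quantile normalization Thrsp (2.41) and Me1 (1.23) were at least 2-fold higher, against 14.3% of compared genes, and no member was lower, against 14.1%. Dio2, Klf9, Crym and Ncoa1 were then at -0.45, -0.25, -0.21 and -0.14. Ncor1 stayed above 0 in each of these, at 0.25 and 0.10. If a mean of 5 FPKM was required, Me1 was the only member of 5 past 2-fold, against 26.4% of compared genes, since Thrsp then drops out.

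**Figure D3:**
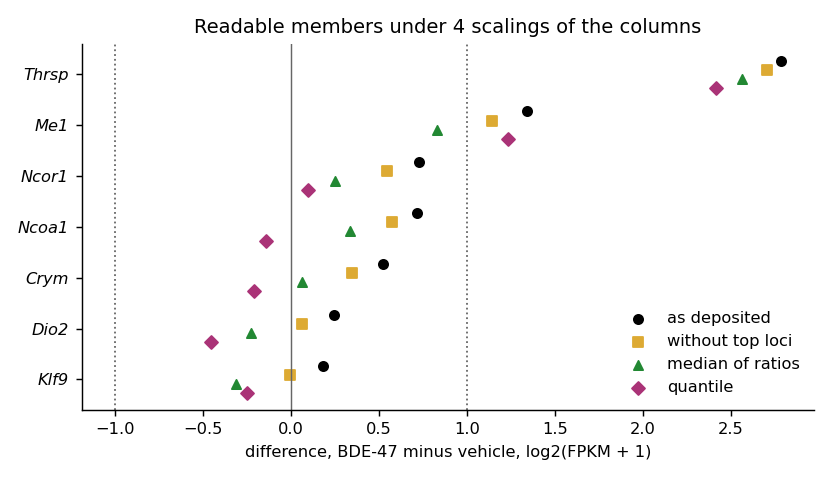
Differences of the 7 readable members on the log2(FPKM + 1) scale (x axis) with the columns as deposited (circles), rescaled without the 10 top loci and mitochondrial genes (squares), with median-of-ratios scaling (triangles) and quantile normalization (diamonds). Thrsp lies beyond 2-fold (dotted line) in all 4, Me1 in 3 of them, and Dio2, Klf9, Crym and Ncoa1 fall below 0 in 1 or more of them.

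Other genes of the hormone's pathway were taken as 7 lists of receptors, transporters, cofactors, deiodinase handling, lipid synthesis, other targets and plasma binding. Of their 72 genes, 66 had a row under the symbol used and 50 could be compared. Of these, 27 were at least 2-fold higher with BDE-47, or 54.0% beside 30.1% of all compared genes. At least 2-fold lower were 0, beside 3.6% of all compared genes. The median difference was 1.11. After median-of-ratios scaling 20 of the 50 were higher and 5 lower, beside 19.3% and 14.5% of all compared genes. After quantile normalization 15 were higher and 3 lower, beside 14.3% and 14.1%. The lists were chosen with earlier results of this table known, and nothing particular to them follows from these counts.

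Receptor, partner and cofactor genes were counted as 2 lists. Of 4 compared receptor and partner genes, 3 were at least 2-fold higher, beside 30.1% of all compared genes. They were Thra, the receptor gene, at 1.78 and 14.6 FPKM, Rxra at 0.973 and 5.82 and Rxrg at 0.166 and 2.01. Rxrb, named after its value was seen, was at 11.7 and 11.9 FPKM, and the other receptor gene Thrb was too low to read at 0.426 and 0.933. Rxra and Rxrg were under 1 FPKM with vehicle and passed the filter through the BDE-47 column, so that the difference of Rxrg had to be large. Of the 2 with a mean of at least 5 FPKM, Thra and Rxrb, 1 was past 2-fold, beside 26.4% of all genes compared at that filter. Quantile normalization left 1 of the 4 higher, beside 14.3% of all compared genes. Of 8 compared cofactor genes beside Ncor1 and Ncoa1, only Tbl1x, a partner of the Ncor1 complex, was past 2-fold, at 2.43 and 12.2 FPKM. This share lay under the 30.1% of all compared genes. Cofactor genes had a median difference of 0.72, the same as Ncor1 and Ncoa1 to within 0.01, which became 0.29 by median-of-ratios scaling and 0.15 by quantile normalization.

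Genes that carry the hormone into cells were at least 2-fold higher for 3 of 5 compared, beside 30.1% of all compared genes. Slc7a8 was at 9.45 and 52.3 FPKM, and Slc7a5, which like it is an amino acid transporter that also carries thyroid hormones, at 13.3 and 33.1. Their common heavy chain gene Slc3a2 was at 52.0 and 147 FPKM. Median-of-ratios scaling left 1 of the 5 higher and put 1 lower, beside 19.3% and 14.5% of all compared genes. Quantile normalization left 2 higher and put 1 lower, beside 14.3% and 14.1%. Sult1a1, a sulfotransferase gene, was the only compared gene of plasma binding and hormone breakdown, at 5.70 and 39.9 FPKM.

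Genes that make or turn over the deiodinase proteins had no common direction. The list holds genes of selenocysteine insertion, which the deiodinases need, and of the ubiquitin enzymes that act on Dio2. It also holds Txnrd1, which is neither and was read from a locus merged with Eid3, at 209 and 177 FPKM. Among 10 compared, 3 were at least 2-fold higher, near the 30.1% of all compared genes: Usp33 (5.50 and 19.0 FPKM) and Wsb1 (8.51 and 21.7), which remove and direct ubiquitin on Dio2, and Pstk (6.41 and 14.1), of selenocysteine synthesis. The median was 0.0012, below that of all genes, and it became -0.49 with median-of-ratios and -0.22 with quantile normalization. Over the 9 genes whose row names the symbol alone it was 0.24, beside 0.47 for all such genes. Of the calls, median-of-ratios scaling gave 1 higher and 2 lower, beside 19.3% and 14.5% of all compared genes. Quantile normalization gave 0 higher and 2 lower, beside 14.3% and 14.1%.

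Genes of lipid synthesis and NADPH supply, the processes that Thrsp and Me1 serve, were the list with the most members past 2-fold. Of 13 compared, 12 were at least 2-fold higher with BDE-47, beside 30.1% of all compared genes, with a median difference of 1.60. Scd1, a fatty acid desaturase gene, was at 0.351 and 14.9 FPKM, and its paralog Scd2 at 40.2 and 217, so some reads may be shared. Mid1ip1, a relative of Thrsp, was at 0.986 and 10.8 FPKM. Scd1, Mid1ip1 and Me3 (0.664 and 4.06 FPKM), the last named after its value was seen, were under 1 FPKM with vehicle. They passed the filter only through the BDE-47 column and could thus only be higher. The member within 2-fold, named after its value was seen, was Acaca, the gene of acetyl-CoA carboxylase, at 17.3 and 15.3 FPKM. The count of higher genes was 9 with median-of-ratios scaling, beside 19.3% of all compared genes, and 6 with quantile normalization, beside 14.3%. None was lower in either, and the medians were 1.14 and 0.93.

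Among other hormone-responsive genes 4 of 9 compared were at least 2-fold higher, beside 30.1% of all compared genes. Among these were the uncoupling protein gene Ucp2 (24.3 and 125 FPKM), Bcl3 (1.49 and 9.78) and the sodium pump gene Atp1b1 (24.1 and 88.0). The list had a median difference of 0.63, which became 0.29 with median-of-ratios and 0.17 with quantile normalization.

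**Figure D4:**
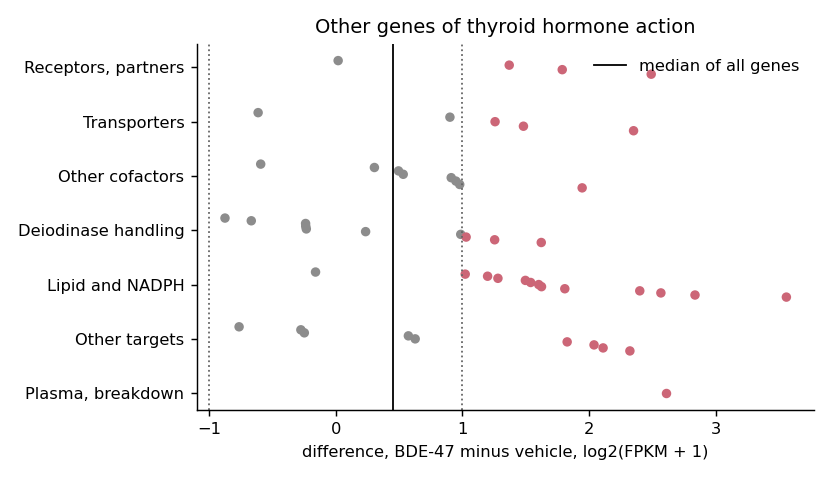
Differences on the log2(FPKM + 1) scale (x axis) of the 50 compared genes of 7 pathway lists (rows), 1 point per gene, with red points at least 2-fold higher and grey points within 2-fold. The solid line marks the median of all compared genes (0.45) and the dotted lines 2-fold; 12 of the 13 genes of lipid synthesis and NADPH supply are red and no gene lies beyond the lower line.

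Markers of several testis cell types differed between the columns beside these genes. In a whole tissue, fewer cells of a type and less RNA per cell cannot be told apart. By 2-fold or more, all 8 Leydig cell markers and all 8 macrophage markers were higher with BDE-47, as were 8 of 9 compared Sertoli cell markers. Of all compared genes 30.1% were higher and 3.6% lower by that size. These shares were 19.3% and 14.5% by median-of-ratios scaling, and 14.3% and 14.1% by quantile normalization. The Leydig, macrophage and Sertoli counts were 8, 7 and 7 by median-of-ratios scaling, and 8, 7 and 6 by quantile normalization. Their summed levels went from 154 to 1739 FPKM for Leydig cells, from 29.0 to 425 for macrophages and from 332 to 1857 for Sertoli cells. The Leydig sum includes Insl3, read from a locus merged with Jak3, at 71.0 and 904 FPKM. Of 8 late spermatid markers 6 were at least 2-fold lower, with summed levels of 77234 and 30828 FPKM, and this count was 7 by median-of-ratios scaling and 3 by quantile normalization. Of 11 fat cell markers 10 could be compared and 7 were at least 2-fold higher, with summed levels of 104 and 272 FPKM. By median-of-ratios scaling 6 were higher and 1 lower. The largest differences were those of Fabp4 (0.683 and 83.3 FPKM), Car3 (0.261 and 29.9), Lpl (0.114 and 13.2) and Cfd (4.44 and 65.3). Of markers named after their values were seen, Adipoq, of the fat cell hormone adiponectin, was at 6.32 and 16.4 FPKM and Plin1, of the lipid droplet, at 0.297 and 3.32. Fabp4, Car3, Lpl, Plin1 and Retn (0.0130 and 5.17 FPKM) were under 1 FPKM with vehicle. They passed the filter only through the BDE-47 column and could thus only be higher. The 3 markers within 2-fold were Cidec (3.34 and 4.76 FPKM), Pparg (2.69 and 2.68) and the lipase gene Lipe (85.6 and 46.2), which makes up most of the vehicle sum. Lep, the leptin gene, was too low to read at 0.0172 and 1.82 FPKM. No fat cell marker was listed at 0 in either column. Of spermatocyte, endothelial and peritubular muscle markers 3 of 6, 2 of 4 and 1 of 4 compared were higher by 2-fold or more, and these counts were 0, 1 and 1 by median-of-ratios scaling. Of these markers Hormad1, Spo11 and Tek were read from loci merged with another gene. The endothelial marker Pecam1 (0.570 and 3.94 FPKM) and the macrophage marker Cd68 (0.796 and 17.4) passed the filter only through the BDE-47 column. The part of these cell types in the differences of Thrsp and Me1 was not tested.

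Some members lie in intervals that the table assigns to many loci at once. Coordinates here are those of the deposited table on build rn5. Crym is listed at chromosome 1:196392555-197297418, an interval of 905 kb that 49 other loci share, named for 10 symbols or unnamed. Of those 49, 35 reached the mean of 1 FPKM asked of compared genes. A higher value with BDE-47 was found for 45 of the 49. By 2-fold or more 8 were higher, beside 30.1% of all compared genes, and none was lower, beside 3.6%. Their median difference was 0.63, beside the 0.53 of Crym and 0.45 for all compared genes. Dio2 is listed at chromosome 6:123649588-124002434 with 19 unnamed loci of the same bounds, each at most 2.48 FPKM. Ncor1, at chromosome 10:48387809-48619131, shares its interval with Ttc19 (3.61 and 6.41 FPKM) and Pigl (2.79 and 5.35), whose differences of 0.69 and 0.75 were near the 0.73 of Ncor1. Me1, at chromosome 8:93768378-93863616, and Thrsp, at chromosome 1:168587723-168592048, share theirs with no other locus, and neither do Ncoa1, Dio1, Dio3 and Hr.

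Klf9 is the only member with a second row. Both rows have the bounds chromosome 1:248191230-248219917, and the lower row was at 6.02 and 4.96 FPKM, a difference of -0.24 beside the 0.18 of the higher row. Klf9 is on the plus strand in GRCr8. Of the 20 genes of known strand nearest in locus number to the lower row, 19 are on the minus strand, and of the 20 nearest to the higher row 16 are on the plus strand. The lower row thus stands among loci numbered with the strand opposite to Klf9, and reads of the strands can be told apart only if the counting used strand, which the sources used here do not give. With both rows summed, the difference of Klf9 was 0.09.

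**Figure D5:**
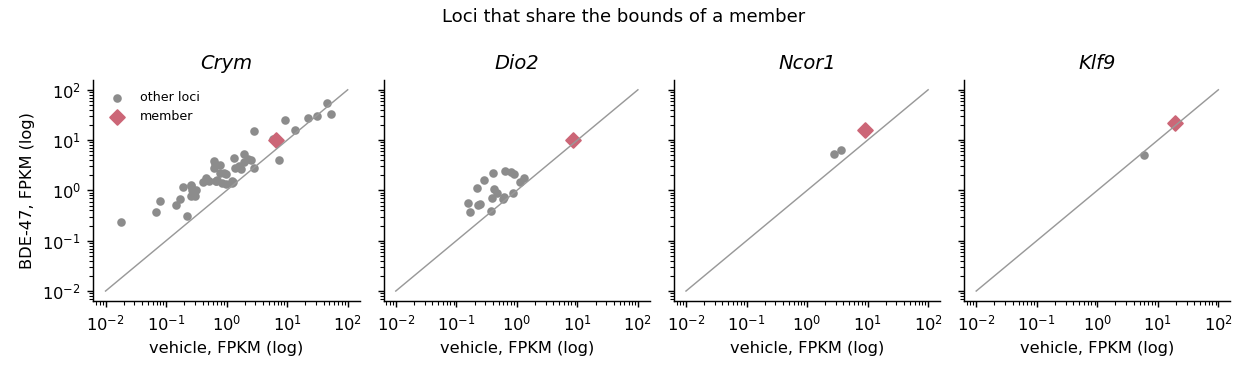
Vehicle value (x axis) against BDE-47 value (y axis), both in FPKM on log axes, of the loci that share the bounds of Crym, Dio2, Ncor1 and Klf9, with the member as a red diamond, the other loci in grey and a line at equal values. Of the loci that share the bounds of Crym 45 of 49 lie above the line, and the second Klf9 row lies below it.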

How the data were processed

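RNA of testis was sequenced as poly(A) libraries, 5 per group. Per the submitters' processing notes the tools were TopHat2 and Cuffdiff 2.1.1 on build rn5; annotation, strand setting and the way libraries were combined are not stated there. The deposited values are log2 FPKM made by the authors, 1 per group and locus, and their log2 ratio, which equals the difference of the columns within 0.01. The table holds 94827 loci, 20638 of them with a gene name. A log2 value of -10 is the floor and was read as 0. The table has no counts, so depth is unknown. The extraction text names liver and the tissue label testis. Library titles carry a C code for BDE-47 and an X code for vehicle, and no column shows its libraries.

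From these values log2(FPKM + 1) differences were computed (Python 3.11.15, pandas 2.3.3, scipy 1.17.1). One row was kept for each of 16915 name fields, and the 11567 that reached a mean of 1 FPKM were compared, 517 of them merged loci. The limma fit held ready for values per library could not be used. Past 2-fold is a rule of size. Median-of-ratios factors came from compared genes above 0 in both columns, and quantile normalization used the 16915 rows. In each pathway list, up to 4 genes past 2-fold with the largest difference were named; markers were named after their values were seen. Some genes that this rule names are not reported here. Members, lists and rules were chosen with earlier results of these data known. Alternatives were the pseudocount, filter, scaling, deposited ratio and choice of row. Scaling and calls were tested on simulated data. Sequences are from RefSeq, GRCr8.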

Additional observations from a re-analysis of the deposited data

Results flagged for a closer look

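Signal outside the named rows was found in the interval of Dio2. Of the 19 unnamed loci with its bounds, 3 were at least 2-fold higher with BDE-47, beside 30.1% of all compared genes, at 0.291 and 1.65 FPKM, at 0.403 and 2.17 FPKM and at 0.629 and 2.48 FPKM. Only 6 of the 19 reached the mean of 1 FPKM asked of compared genes, and the first of the 3 did not. Summed, the 19 loci were at 10.2 FPKM with vehicle and 22.5 with BDE-47, though most of them were too low to read. Dio2 itself was at 8.46 and 10.2 FPKM.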

How the results depend on the processing

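With only 2 columns of group values, leaving out replicates could not be run, and no litter or batch could be examined. No paired analysis was possible because the columns carry no replicate. Of 100 member values under 10 alternatives, 86 kept direction and side of 2-fold, and Thrsp did so in each (2.41 to 8.84). The changes of filter left each member's own difference as it was, and the choice of row moved only that of Klf9. Many of the 86 thus could not have moved, and the 100 include Dio1, Dio3 and Hr, which were too low to read. The count is therefore no measure of how firm the differences are. For Thrsp the direction was fixed by its entry through the BDE-47 column and is no support. Median-of-ratios scaling gave 1 member at least 2-fold higher, a member median of 0.25, 2233 genes higher and 1675 lower, a median of 0 over all genes by construction and 5 pathway genes lower, with Dio2 at -0.23, Klf9 at -0.31 and Me1 at 0.83. Quantile normalization, which makes the columns equal in distribution, gave a member median of -0.14 and a median of -0.069 over all genes, 1658 genes higher and 1632 lower, 15 pathway genes higher and 3 lower, with Dio2 at -0.45, Klf9 at -0.25, Crym at -0.21, Ncoa1 at -0.14 and Hr at -0.014. Without the most abundant loci the medians were 0.55 for members and 0.28 for all genes, 816 genes and 1 pathway gene were lower, and Klf9 was at -0.0074. Without a filter the medians were 0.45 for 10 members and 0.15 for all genes. With the filter at 5 FPKM, which leaves fewer genes, 1 member and 2227 genes were higher, with medians of 0.53 and 0.33. Hr passed 2-fold with pseudocounts of 0.1 and 0.01 and in the authors' deposited table (1.06, 1.31 and 1.35), and Dio3 in the last 2 of these (1.46 and 1.72); the lower pseudocounts give low values more weight. The cause of the other changes was not tested. Depth is unknown, so no limit can be set for the low members.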

Other observations

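Genes of the thyroid gland and of the liver, the organs that make the hormone and much of its circulating active form, were mixed in level. Of 7 thyroid gland markers 3 were compared, among them the anion transporter gene Slc26a4 at a mean of 6.09 FPKM over both columns. The receptor gene Tshr was at 0.0234 and 0.134 FPKM and the iodide transporter gene Slc5a5 at 0.0490 and 0.0118. Tg, of the hormone precursor, has a value only in a locus merged with Phf20l1, at 7.06 and 17.0 FPKM, which belongs to neither gene alone. Of 8 liver markers 4 were compared, among them the fibrinogen chain gene Fgb at 5.24 and 6.45 FPKM. Albumin was at 0.920 and 0.633 FPKM and Apoa2 was listed at 0 in both columns, while Hpx, the gene of the heme-binding protein hemopexin, was at 0.973 and 46.5. Ttr, which carries thyroxine in plasma, was at 0.142 and 1.67 FPKM, under a mean of 1.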
